A study of Mus musculus with 35 samples.

Results

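The genes described here encode the factors that start and extend protein chains on cytosolic ribosomes, and some related proteins. These genes were measured in type 1 conventional dendritic cells (cDC1) sorted from mouse spleen. Members were all genes whose single symbol in the platform annotation begins with Eif1 to Eif6 or with Eef1 or Eef2. Kinases, genes whose symbols begin with Eif4ebp, pseudogenes and the Eif2s3 genes were left out. This gave 52 of the 19938 genes with a named cluster, 41 of them with Eif and 11 with Eef symbols. The 11 are 5 elongation factor subunits, 5 methyltransferases of elongation factors and Eef1e1 of the synthetase complex. Members are called initiation or elongation factors by symbol alone, Eif or Eef. Clusters that carry several symbols were not used. Eif1, Eif2s1, Eif4g1, Eif3g, Eif3j1 and Eef1g were not analysed here.

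Initiation begins when eIF2 carries the initiator tRNA to the small ribosomal subunit, helped by the many-subunit eIF3 complex. The cap-binding eIF4 factors recruit the mRNA, eIF1, eIF1A and eIF5 help select the start codon, and eIF5B joins the large subunit. eEF1A then delivers each aminoacyl-tRNA, its exchange factor eEF1B recharges it, and eEF2 moves the ribosome along. MYC proteins bind E-box DNA with MAX and are known to raise genes of ribosome production and translation, while MXD proteins pair with MAX as repressors. cDC1 are known to express Mycl, a MYC relative.

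The study compared 35 arrays in 8 groups, each array hybridised with cDNA from total RNA of sorted cDC1. In set 1, at steady state, 4 libraries came from mice homozygous for a GFP allele of Mycl (MyclGFP/GFP, called Mycl KO) and 5 from heterozygotes (MyclGFP/+, called HET). Set 2 held 5 Mycl KO and 5 Mycl wild-type libraries (Mycl+/+, called WT), also at steady state. Set 3 held 5 Mycl KO and 5 WT libraries from mice given 100 µg of poly IC by intraperitoneal injection 5 h earlier. Poly IC mimics viral RNA and sets off an interferon response. In the Mxd1 set, 3 libraries labelled Mxd1-/- (Mxd1 KO) and 3 Mxd1+/+ libraries (WT) came from mice that had all received 100 µg of poly IC 18 h before. The control of set 1 thus carries 1 GFP allele. Replicates are named as biological in the labels, but nothing says that each was a different mouse, and age, sex and strain are not given. If they were not separate animals, the p-values measure a spread that may be partly technical.

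Values are log2 signals after the authors' RMA, a method that equalises the distribution of signals between arrays. The 4 sets were normalized separately, with array medians of 6.50 to 6.57, 5.55 to 5.60, 5.47 to 5.53 and 5.95 to 6.01 in sets 1, 2, 3 and the Mxd1 set, so levels are compared only within a set. A level is relative to the other transcripts of its array, and in bulk RNA fewer cells and less RNA per cell cannot be told apart. All 12 cDC1 markers on the list were measured, among them Xcr1 and Clec9a, and the median marker lay between the 96.1 and 99.0 percentile of its array in all 35 libraries. The Mycl transcript was at 6.78 to 7.11 in set 1 KO, against 9.65 to 9.93 in HET, and at 5.51 to 5.80 in set 2 KO, against 9.55 to 9.79 in WT. In set 3 it was at 5.52 to 6.14 in KO libraries 1, 2, 4 and 5 but at 8.87 in the library labelled KO 3, against 9.03 to 9.81 in WT. In the Mxd1 set the Mxd1 transcript was at 10.64, 10.49 and 10.41 in the libraries labelled KO, against 11.03, 10.81 and 10.63 in WT (difference -0.31 ± 0.11 SE, limma adjusted p = 0.260), so the labels of that set were not borne out by a loss of signal. Whether the cluster covers the deleted part of Mxd1 is not given in the sources used here. In set 3, the mean log2 signal of 9 interferon response genes, such as Rsad2 and Ifit1, was 11.37 to 11.73 in KO. In WT it was 11.24 to 11.50 in libraries 2, 3 and 5 but 7.73 in WT 1 and 9.08 in WT 4. Results of set 3 are therefore given with and without KO 3, WT 1 and WT 4.

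**Figure D1:**
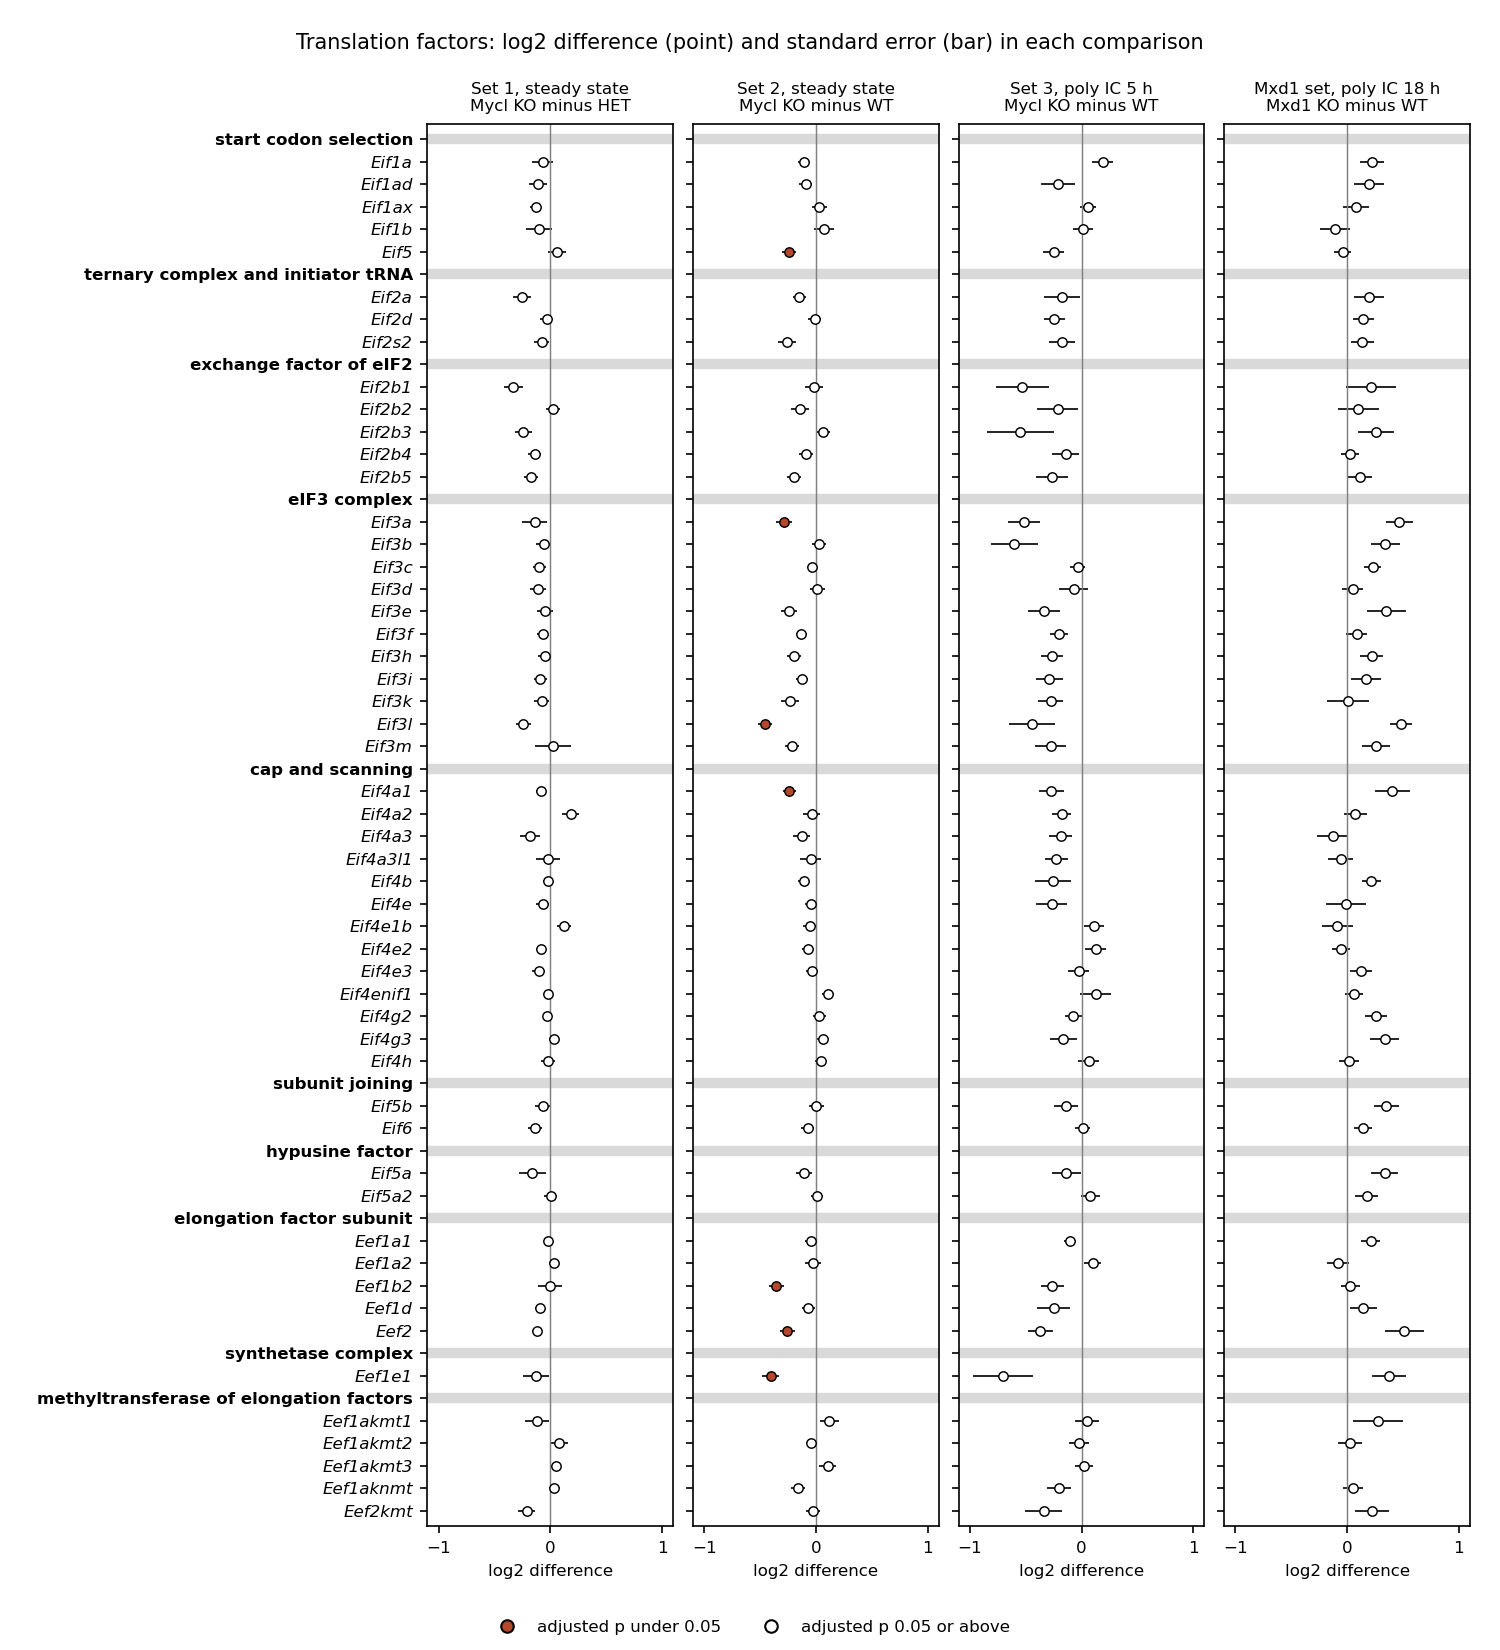
Log2 difference (KO minus control, x axis) of each translation factor (rows, grouped by role) in the 4 comparisons (panels), with points for limma estimates, bars for standard errors and filled points for adjusted p under 0.05. The 7 filled points are all in set 2 and all below 0, and most points lie left of 0 in the 3 Mycl panels and right of 0 in the Mxd1 panel.

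In steady-state Mycl KO cDC1 of set 2, 7 of the 52 factors fell and 0 rose (limma, adjusted over all 14012 genes tested, threshold 0.05). Over all genes tested, 2.36% fell and 3.78% rose. The 7 belonged to several steps: Eif3l and Eif3a of the eIF3 complex, Eif4a1 and Eif5 of scanning and start codon selection, Eef1b2 and Eef2 of elongation, and Eef1e1 of the synthetase complex. Of the 52, 39 (75%) were below 0, against 47.1% of all genes, and the members' median log2 difference was -0.07, against 0.01 over all genes.

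Eif3l, a peripheral subunit of eIF3, had log2 levels of 8.17, 8.29, 8.01, 8.21 and 8.14 in the 5 set 2 KO libraries, against 8.74, 8.61, 8.55, 8.59 and 8.59 in WT. Every KO library lay below every WT library, and the difference was -0.45 ± 0.06 (SE, adjusted p = 0.000866), the lowest of the 52 factors in set 2. Eif3a, the large scaffold subunit of eIF3, was at 8.80, 8.99, 8.65, 8.74 and 8.73 in KO, against 9.14, 8.96, 9.09, 9.19 and 8.96 in WT. KO 2 reached into the WT range, and the difference was -0.29 ± 0.07 (adjusted p = 0.0278). The eIF3 complex as a whole leaned the same way: 9 of its 11 measured subunits were below 0, with a median of -0.19, and 2 passed the test. Eif3e, a subunit on the same side of the complex as Eif3l, was at 10.02, 10.31, 10.40, 10.30 and 10.32 in KO, against 10.54, 10.46, 10.45, 10.63 and 10.49 in WT. The groups did not overlap, but the adjusted p was 0.0520. Eif3b, a core subunit, differed by 0.03 ± 0.06 (adjusted p = 0.857).

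Eef1e1 encodes a small scaffold protein of the multi-synthetase complex that is related to eEF1 subunits. It was at 7.66, 8.01, 7.71, 7.76 and 7.56 in set 2 KO, against 8.18, 8.13, 8.07, 8.25 and 8.11 in WT. The KO values stayed below the WT values, with KO 2 nearest, and the difference was -0.41 ± 0.07 (adjusted p = 0.00643). Eef1b2, the exchange subunit of eEF1B, was at 11.45, 11.38, 11.27, 11.45 and 11.22 in KO, against 11.87, 11.78, 11.63, 11.68 and 11.59 in WT. Its groups did not overlap, and it differed by -0.36 ± 0.07 (adjusted p = 0.00813). Eef2, the translocase of elongation, was at 11.28, 11.26, 10.95, 11.30 and 11.18 in KO, against 11.47, 11.46, 11.47, 11.38 and 11.48 in WT. KO 3 was the lowest of the 10, the groups did not overlap, and the difference was -0.26 ± 0.07 (adjusted p = 0.0358). Eef1a1, the main carrier of aminoacyl-tRNA, was at 13.40 to 13.48 in KO and 13.47 to 13.51 in WT, a difference of -0.05 ± 0.05 (adjusted p = 0.621). The other subunits, Eef1d and Eef1a2, did not pass the test either.

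Eif4a1, the helicase that unwinds mRNA ahead of the scanning ribosome, was at 11.42, 11.62, 11.40, 11.59 and 11.54 in set 2 KO, against 11.80, 11.73, 11.80, 11.72 and 11.73 in WT. The groups were apart, with a difference of -0.24 ± 0.06 (adjusted p = 0.0244). Eif4a1 has 3 clusters, and the brightest was used. The others differed by -0.24 and -0.23 in set 2. In the Mxd1 set they differed by 0.25 and 0.18, against 0.41 for the cluster used. Eif4a1 was the 1 member called of the 13 grouped under cap and scanning, whose median was -0.05. That group also held Eif4a3 of the exon junction complex, and Eif4a3l1 and Eif4enif1. The cap-binding protein Eif4e differed by -0.05 ± 0.05 (adjusted p = 0.656) and the helicase cofactor Eif4b by -0.11 ± 0.06 (adjusted p = 0.291). Eif5, which makes eIF2 hydrolyse its GTP at the start codon, was at 10.01, 10.18, 10.10, 10.03 and 10.14 in KO, against 10.48, 10.35, 10.27, 10.36 and 10.22 in WT. The groups did not overlap, by a margin smaller than the spread within either, and the difference was -0.24 ± 0.06 (adjusted p = 0.0290).

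No factor of the last initiation steps was called in set 2. Eif5b, the joining GTPase, differed by 0.00 ± 0.07, Eif6, which keeps free subunits apart, by -0.08 ± 0.06, and Eif5a, the hypusine-bearing factor also active in elongation, by -0.11 ± 0.07. Their adjusted p ran from 0.424 to 0.984. In all, 11 of the 52 factors had KO values wholly below WT, against 3% of all genes tested, and 17 had an unadjusted p under 0.05 on the lower side, against 8.56%. The interferon gene mean was 6.72 to 7.06 in KO and 6.67 to 6.87 in WT. Marker lists of 2 other cell types also separated the groups: the mean of 5 plasmacytoid dendritic cell markers was 7.40 to 7.72 in KO and 7.26 to 7.34 in WT, and that of 6 monocyte and macrophage markers was 6.52 to 6.76 in KO and 6.89 to 7.05 in WT. A list mean does not say whether such cells were present, and the part of these markers in the set 2 differences was not tested. The calls of Eif3l, Eef1e1 and Eef1b2 held when any 1 of the 10 libraries was left out, while the count of 7 fell to 3 without KO 5 or without WT 1 and to 4 without WT 3. With all 8 groups in one fit, which then share one estimate of the spread, Eef1b2 alone kept its call, against 0.864% of all genes on the lower side.

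**Figure D2:**
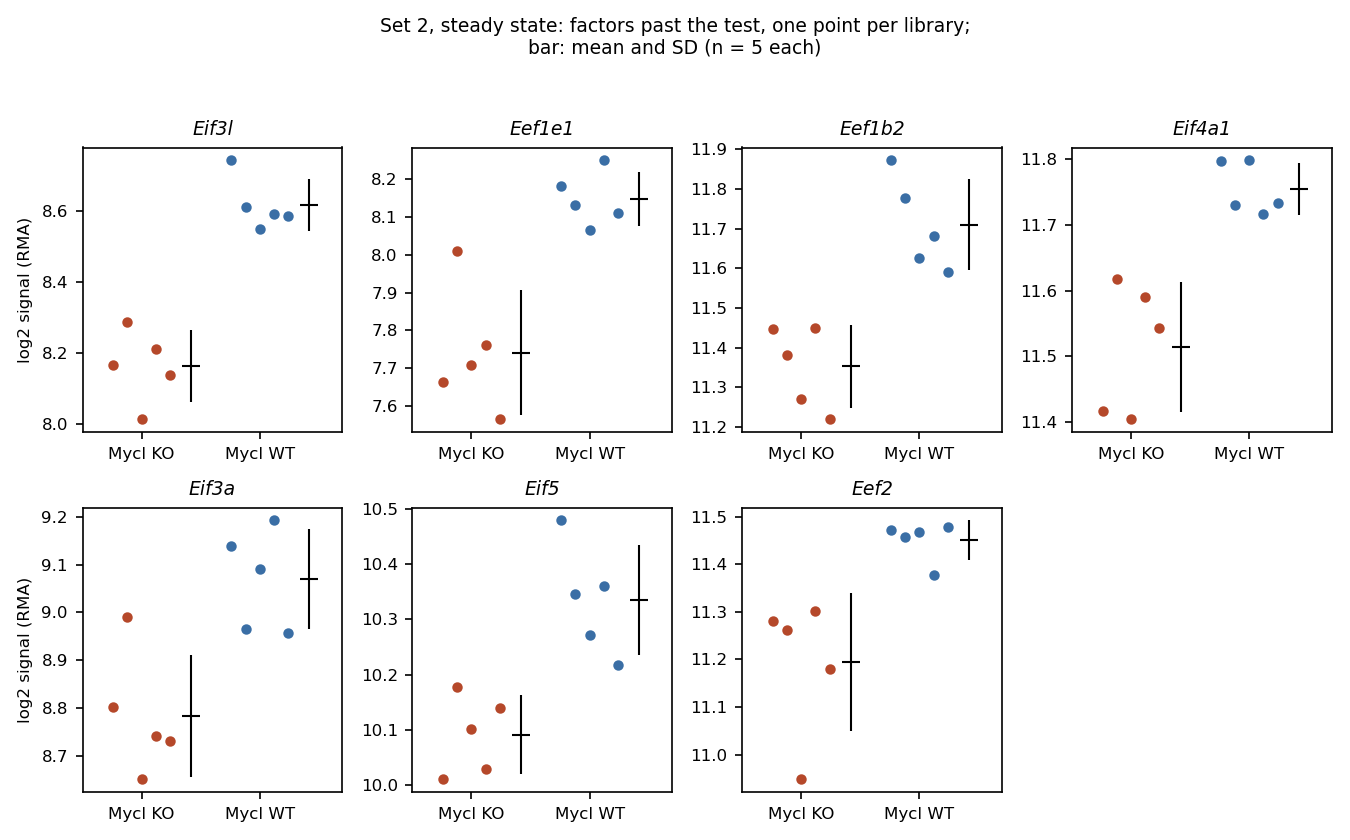
Log2 signal (y axis) of the 7 factors past the test in set 2, steady state, in Mycl KO (left) and WT (right) libraries, 1 point per library, with mean and SD (n = 5 each) as a cross bar. KO points lie below WT points for each factor except Eif3a, where KO library 2 at 8.99 is above 2 WT libraries at 8.96.

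Against heterozygotes, in set 1, 0 of the 52 factors passed the test, against 0.0214% of the 14023 genes tested. With limma's unadjusted p under 0.05, 9 were lower and 1 higher, against 8.45% and 5.75% of all genes. Still, 41 of 52 (78.8%) were below 0, against 48.7% of all genes, with a median of -0.07, against 0.00 over all genes. The arrays of set 1 share exact values: 16 of the 52 factors had the same value in at least 2 of its libraries, as had 60% of all genes, against 0 factors and 1.85% of genes in set 2. The effect of these ties on the spread was not tested. The cDC1 marker mean was 11.38 to 11.52 in KO and 11.18 to 11.36 in HET, the interferon gene mean 7.43 to 7.46 in KO and 7.23 to 7.40 in HET, and their part in the differences was not tested. Eif2b1, the regulatory subunit of the eIF2 exchange factor, had the smallest p: it was at 8.30, 8.40, 8.25 and 8.39 in KO, against 8.44, 8.76, 8.71, 8.53 and 8.90 in HET. It was the 1 factor whose groups did not overlap on the lower side, against 2.72% of all genes, and differed by -0.33 ± 0.09 (adjusted p = 0.182). Eif3l was at 9.63, 9.54, 9.62 and 9.72 in KO, against 9.68, 10.02, 9.93, 9.90 and 9.82 in HET. KO 4 exceeded HET 1, and the difference was -0.24 ± 0.07 (adjusted p = 0.200). Of the 5 exchange factor subunits, 4 were below 0 with an unadjusted p under 0.05: Eif2b3, for example, was at 7.70, 7.42, 7.50 and 7.72 in KO, against 7.71, 7.83, 8.0, 7.73 and 7.86 in HET. KO 4 reached just above HET 1 (difference -0.24 ± 0.08, adjusted p = 0.235).

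The effects of sets 1 and 2 were also compared directly, by testing the difference of the 2 differences. No factor passed (0 called, against 1.01% of 14639 genes), while 2 factors had an unadjusted p under 0.05 on the lower side and 5 on the higher, against 16.2% of all genes in both directions together. The smallest p belonged to Eif2b3, with -0.30 ± 0.10 (set 1 minus set 2, adjusted p = 0.124), Eif5, with 0.30 ± 0.10 (adjusted p = 0.134), and Eef1b2, with 0.35 ± 0.13 (adjusted p = 0.170). In set 1 Eef1b2 had nearly equal means, 12.34 ± 0.11 in KO and 12.34 ± 0.23 in HET (SD, n = 4 and 5). HET 5, at 11.93, was far below the other HET libraries, at 12.37 to 12.48. Eif5 was likewise at 10.62 in HET 5, against 10.99 to 11.04 in the other HET libraries.

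With sets 1 and 2 in one fit and the set as a term, 6 factors fell and 0 rose, against 2.43% of all genes on the lower side. They were Eif3l (-0.35 ± 0.05, adjusted p = 0.000282), Eif2b5, the catalytic subunit of the eIF2 exchange factor (-0.18 ± 0.04, adjusted p = 0.0135), Eif4a1 (-0.17 ± 0.04, adjusted p = 0.0135), Eef2 (-0.19 ± 0.04, adjusted p = 0.0137), Eif2a, an initiator tRNA binding protein outside the eIF2 complex (-0.20 ± 0.05, adjusted p = 0.0244), and Eef1e1 (-0.28 ± 0.08, adjusted p = 0.0363). Eif2b5 had been at 7.19, 7.37, 7.25, 7.39 and 7.42 in set 2 KO, against 7.56, 7.45, 7.58, 7.53 and 7.48 in WT. In set 1 it was at 8.63, 8.62, 8.47 and 8.70 in KO, against 8.67, 8.87, 8.88, 8.75 and 8.70 in HET. The groups were apart in set 2 and overlapped in set 1, where KO 4 was above HET 1. Eif2a was at 6.60, 6.79, 6.62, 6.74 and 6.67 in set 2 KO and 6.79, 6.76, 6.81, 6.97 and 6.84 in WT, with KO 2 inside the WT range. Of all 52, 42 were below 0, against 46% of all genes, and these 42 included 11 of 11 eIF3 subunits. With limma's unadjusted p under 0.05, 21 of the 52 were lower, against 9.03% of all genes. The call of Eef1e1 was lost when any of 12 of the 19 libraries was left out, with an adjusted p of at most 0.0756.

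After 5 h of poly IC, in set 3, 0 of the 52 factors and 0% of the 14033 genes passed the test. The factors' median difference was -0.19, against about 0 over all genes, and 40 of 52 (76.9%) were below 0, against 50.3%. With limma's unadjusted p under 0.05, 14 were lower and 0 higher, against 7.58% of all genes on the lower side. All 11 eIF3 subunits were below 0, with a median of -0.28, and all 5 exchange factor subunits, with a median of -0.26. Without WT 1 and WT 4, 9 of the 11 eIF3 subunits were below 0, with a median of -0.13. The exchange factor subunits Eif2b1 to Eif2b5 then differed by -0.12, 0.04, -0.01, 0.02 and -0.04. Without KO 3 as well, 9 of the 11 eIF3 subunits were below 0, with a median of -0.20. Eif2b1 to Eif2b5 then differed by -0.16, -0.06, -0.04, -0.05 and -0.07. The plasmacytoid marker mean was 7.59 to 7.69 in KO and 7.22 to 7.54 in WT. The cDC1 marker mean was 10.57 in WT 1 and 10.72 in WT 4, against 10.08 to 10.21 in the other WT libraries. In KO it was 10.01 to 10.19. The monocyte and macrophage mean was 6.63 in WT 1 and 6.82 in WT 4, against 6.38 to 6.40 in the other WT libraries. In KO it was 6.18 to 6.42. The neutrophil mean ran from 5.49 to 7.09 in KO and from 5.35 to 6.66 in WT. The part of these markers in the differences was not tested.

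Eif3a was at 8.16, 8.39, 8.46, 8.48 and 8.25 in set 3 KO, against 9.15, 8.78, 8.52, 9.24 and 8.62 in WT. Eif3b was at 8.27, 8.03, 8.34, 8.23 and 8.23 in KO, against 9.33, 8.40, 8.47, 9.45 and 8.47 in WT. Eef2 was at 10.82, 10.75, 10.94, 10.89 and 10.55 in KO, against 11.50, 10.95, 10.97, 11.28 and 11.09 in WT. These were the 3 factors whose groups did not overlap on the lower side, against 1.65% of all genes, and in each the 2 highest values belonged to WT 1 and WT 4. Their differences were -0.51 ± 0.14, -0.60 ± 0.21 and -0.37 ± 0.12 (adjusted p = 0.282, 0.293 and 0.289). Eef1e1 had the largest difference in size, -0.71 ± 0.27 (adjusted p = 0.308): it was at 6.42, 6.68, 7.31, 7.17 and 6.70 in KO, against 8.19, 7.17, 7.09, 8.22 and 7.14 in WT. WT 1 and WT 4 were again about 1 unit above the other WT libraries, and KO 3 and KO 4 reached the level of those others. Eif2b3 was at 5.72, 5.96, 6.10, 6.19 and 5.89 in KO, against 7.51, 6.08, 5.92, 7.15 and 5.95 in WT, where its SD of 0.75 was the widest of the 52 factors.

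Averaged over the 52 factors and taken relative to each factor's mean in the set, the KO libraries of set 3 were at -0.134, -0.134, 0.058, -0.078 and -0.159 and the WT libraries at 0.331, -0.030, -0.062, 0.241 and -0.034. KO 3, the library with a high Mycl signal, was the 1 KO library above 0, and WT 1 and WT 4, those with low interferon genes, were the 2 WT libraries above 0. Without WT 1 and WT 4, 32 of 52 factors (61.5%) were below 0, against 47% of all genes, the median was -0.04, and 4 had an unadjusted p under 0.05 (7.69%), all lower, against 3.67% of all genes. Without KO 3 as well, 37 of 52 (71.2%) were below 0, against 48.4%, and 12 (23.1%) had an unadjusted p under 0.05, all lower, against 5.13%. Without KO 3 alone, 44 of 52 (84.6%) were below 0, against 50.4% of all genes, and the median was -0.24. In that fit 18 (34.6%) had a limma unadjusted p under 0.05, all lower, against 7.99% of all genes on the lower side. No factor passed the adjusted test under any of the 3 choices, although 24 genes were called lower and 39 higher without all 3 libraries. With all 8 groups in one fit, 12 factors passed in set 3, all lower, against 7.46% of all genes on the lower side. Without the 3 libraries Eif3a differed by -0.32 ± 0.10, Eif3b by -0.25 ± 0.08, Eef2 by -0.25 ± 0.09 and Eef1e1 by -0.39 ± 0.14 (adjusted p from 0.233 to 0.335), each smaller in size than with all libraries. The part of the weaker interferon response of WT 1 and WT 4, and of the Mycl signal of KO 3, in the set 3 differences was not tested.

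**Figure D3:**
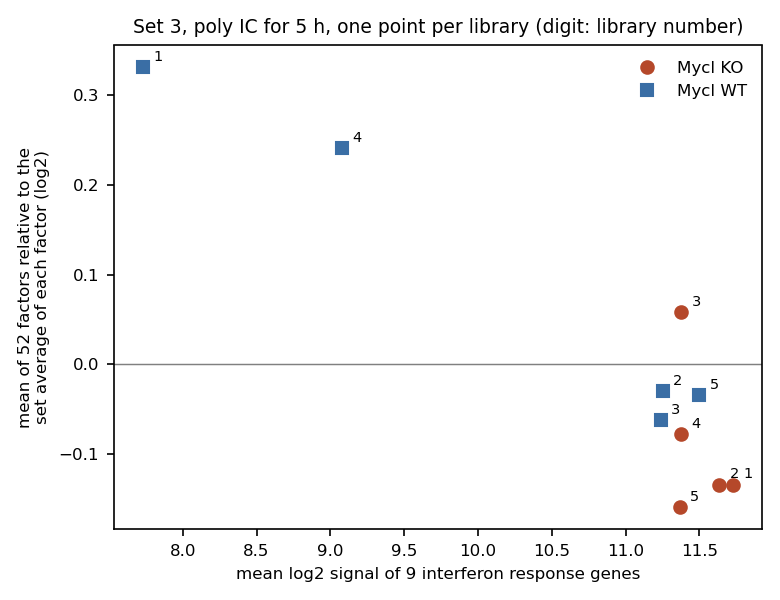
Mean log2 deviation of the 52 factors from their set averages (y axis) against the mean log2 signal of 9 interferon response genes (x axis) in set 3, 1 point per library, numbered, KO as circles and WT as squares. WT 1 and WT 4 stand at the upper left, at 0.331 and 0.241, and the other 8 libraries lie between 11.24 and 11.73 on the x axis and from -0.159 to 0.058 on the y axis.

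The Mycl KO effect after poly IC was set against that at steady state by the difference of set 3 minus set 2. No factor passed (0 called, against 0.0205% of 14665 genes), and 3 had an unadjusted p under 0.05, against 13% of all genes. They were Eif3b, with -0.63 ± 0.23 (adjusted p = 0.268), Eif1a, a start codon factor, with 0.30 ± 0.10 (adjusted p = 0.264), and Eif2d, which handles initiator tRNA outside the eIF2 pathway, with -0.23 ± 0.11 (adjusted p = 0.365). Eif1a had been at 7.87, 8.0, 7.92, 7.91 and 7.71 in set 3 KO and 7.69, 7.72, 7.71, 7.42 and 7.93 in WT. Apart from WT 5, all WT values were below 4 of the KO values, and KO 2 was above WT 5 too. Eif2d was at 6.44, 6.49, 6.75, 6.44 and 6.44 in KO and 6.99, 6.67, 6.64, 6.85 and 6.63 in WT, with KO 3 alone inside the WT range. The medians of this difference over initiation and elongation factors were -0.06 and -0.07 with all libraries but 0.08 and 0.06 without WT 1 and WT 4, so their sign rested on those libraries.

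In the libraries labelled Mxd1 KO, 18 h after poly IC, 0 of the 51 factors tested passed, against 0.071% of the 14080 genes tested. Eef1akmt3, a methyltransferase of eEF1A whose cluster was the dimmest of the members, was not tested in this set: its signal was at 5.33, 5.05 and 5.14 in KO and 5.06, 5.19 and 5.18 in WT. The factors lay on the other side of 0 from the Mycl sets: 43 of 51 were above 0 and 15.7% below, against 50.6% of all genes below, and the median was 0.15, against about 0 over all genes. With limma's unadjusted p under 0.05, 13 were higher and 0 lower, against 9.51% of all genes on the higher side. In 14 factors all 3 KO values exceeded all 3 WT values, against 11.8% of all genes. All 11 eIF3 subunits were above 0, with a median of 0.23. Without WT 1, 9 of the 11 were above 0, with a median of 0.16. Several marker means separated the groups of this set too. That of the 12 cDC1 markers was 10.81 to 10.88 in KO and 10.47 to 10.77 in WT, lowest in WT 1. The plasmacytoid mean was 7.61 to 7.64 in KO and 7.66 to 7.76 in WT, the cDC2 mean 5.41 to 5.46 in KO and 5.48 to 5.56 in WT, and the T and NK cell mean 4.70 to 4.87 in KO and 4.89 to 4.96 in WT. Their part in the differences was not tested.

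Eif3l was at 8.63, 8.68 and 8.62 in KO, against 7.96, 8.28 and 8.23 in WT. It had the smallest p of the factors, with a difference of 0.49 ± 0.10 (adjusted p = 0.136). Eif3a was at 9.12, 9.06 and 9.20 in KO, against 8.49, 8.93 and 8.56 in WT (0.47 ± 0.12, adjusted p = 0.190). Eif5b was at 8.32, 8.25 and 8.32 in KO, against 7.74, 8.15 and 7.94 in WT (0.35 ± 0.11, adjusted p = 0.218). Eef2 was at 11.21, 11.18 and 11.28 in KO, against 10.51, 11.16 and 10.45 in WT (0.51 ± 0.17, adjusted p = 0.234). None of these 4 groups overlapped, the KO libraries were close together in each, and WT 2 was the WT library nearest to KO. Eef1a1 was at 13.62, 13.61 and 13.61 in KO, against 13.33, 13.54 and 13.32 in WT, a gap of 0.21 ± 0.09 (adjusted p = 0.287). Eef1b2, by contrast, was at 11.39, 11.41 and 11.34 in KO and 11.23, 11.39 and 11.44 in WT, within 1 range (0.03 ± 0.08, adjusted p = 0.890).

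Averaged over the members, the KO libraries were at 0.071, 0.103 and 0.062 and the WT libraries at -0.234, 0.018 and -0.021 relative to the set. WT 1 was the lowest and also had the highest Mxd1 signal and interferon gene mean of the set (9.88, against 9.32 to 9.74 in the other 5). Without WT 1, 38 of 52 factors were above 0, against 49.6% of all genes, with a median of 0.07, and 5 had an unadjusted p under 0.05 on the higher side (9.62%), against 6.24%. Without WT 2, 7 factors passed the adjusted test, all higher (Eif3a, Eif3e, Eif3l, Eif4a1, Eif5b, Eef1e1 and Eef2), against 2.98% of all genes on the higher side. With all 8 groups in one fit 2 factors passed, Eef2 and Eef1a1, both higher, against 1.05% of all genes on the higher side. The part of single WT libraries, and of the interferon response, in these values was not tested.

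**Figure D4:**
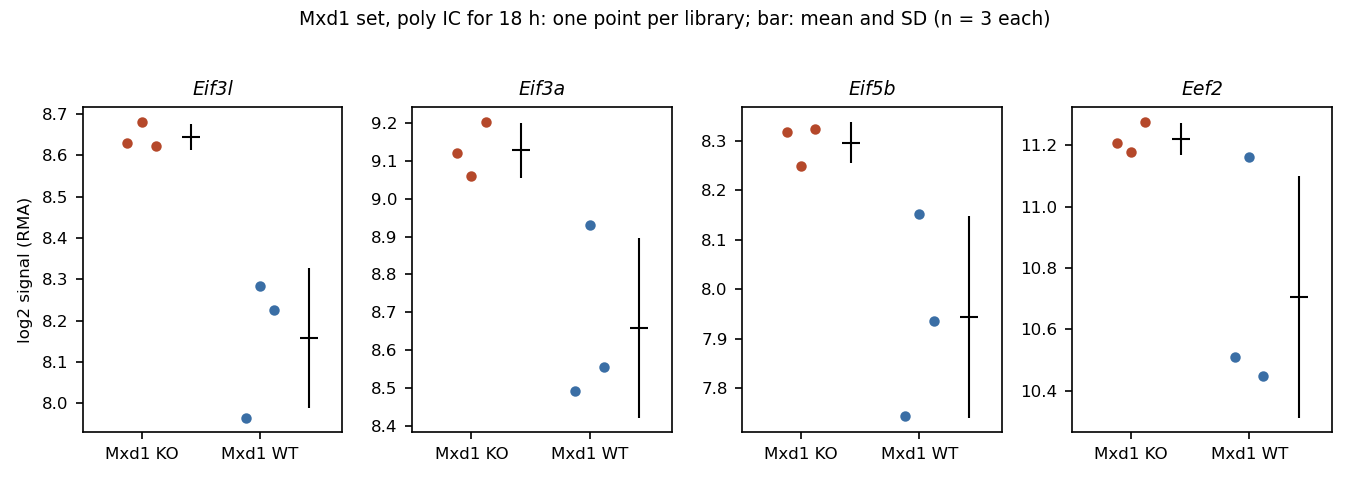
Log2 signal (y axis) of Eif3l, Eif3a, Eif5b and Eef2 in the libraries labelled Mxd1 KO (left) and in WT (right), 18 h after poly IC, 1 point per library, with mean and SD (n = 3 each) as a cross bar. Each KO point is above each WT point, and the WT points spread more widely, with WT 2 nearest to KO.

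Across sets that share no arrays, 28 of the 52 factors (53.8%) were below 0 in all 3 Mycl comparisons, against 17.8% of 13024 genes tested in each of the 4 sets, and 2 were above 0 in all 3. Of 51 factors, 25 (49.0%) were also above 0 in the Mxd1 set, against 13.8% of genes, and of the 11 eIF3 subunits 8 were below 0 in the 3 Mycl sets. With KO 3, WT 1 and WT 4 of set 3 and WT 1 of the Mxd1 set left out, 28 of 51 (54.9%) were below 0 in the 3 Mycl comparisons, against 16.8% of genes, and 22 of 51 (43.1%) had both signs, against 11.2%. Factors of one process share regulators and these signs take no account of error, so the counts are a description of the list.

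**Figure D5:**
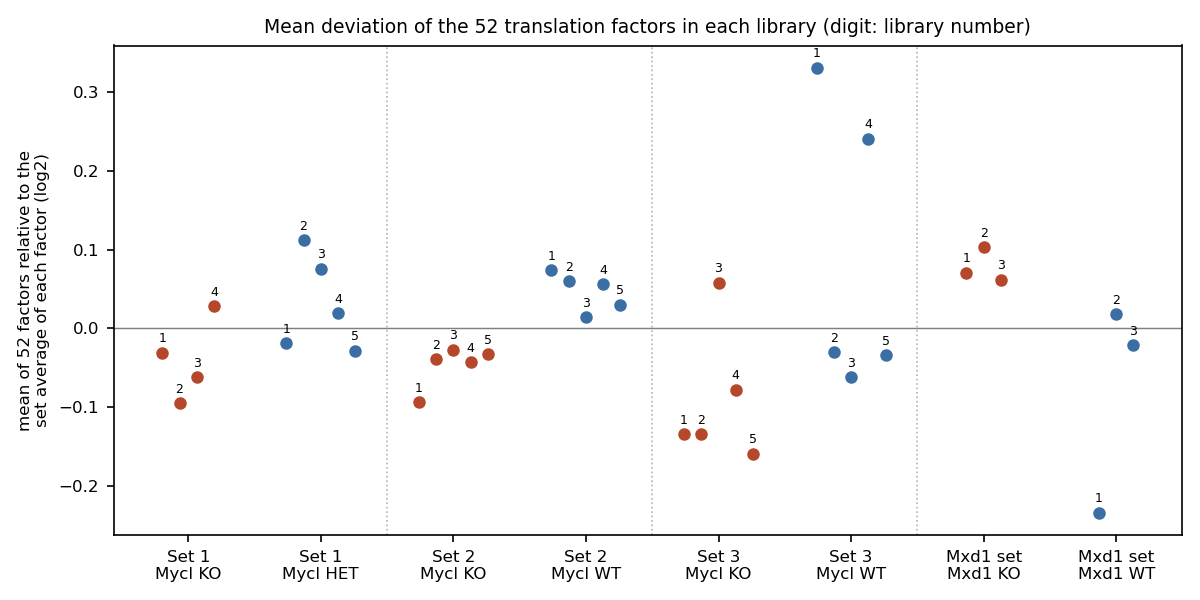
Mean log2 deviation of the 52 factors from their set averages (y axis) in each of the 35 libraries (points, numbered), by group, with KO left of its control in each set. In set 2 all KO points, from -0.094 to -0.027, are below all WT points, from 0.014 to 0.074, and in the Mxd1 set all KO points, from 0.062 to 0.103, are above all WT points, from -0.234 to 0.018. In sets 1 and 3 the groups overlap.

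Members that lie on the chromosome of the altered Mycl allele were looked at apart, since DNA around a targeted locus is passed on with it. Mycl is on chromosome 4, as are Eif2b3, Eif3i and Eif4g3, with 65, 85 and 222 other tested genes between each and Mycl. Eif3i, a small eIF3 subunit, differed by -0.09 ± 0.06, -0.12 ± 0.05 and -0.29 ± 0.12 in sets 1, 2 and 3, and Eif4g3, a scaffold of cap-binding complexes, by 0.03 ± 0.04, 0.06 ± 0.05 and -0.16 ± 0.12. In set 3 without WT 1 and WT 4, Eif3i differed by -0.13 ± 0.10 and Eif4g3 by 0.03 ± 0.08. Without KO 3 as well, Eif3i differed by -0.18 ± 0.09 and Eif4g3 by 0.08 ± 0.07. Neither they nor Eif2b3 passed the test in any comparison.

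Other genes of translation and its control were counted from a list of 47, of which 46 were tested. In set 2, 4 fell and 2 rose, against 2.36% and 3.78% of all genes. Abce1, which splits ribosomes for recycling (-0.26 ± 0.07, adjusted p = 0.0391), Pabpc1, the main poly(A) binding protein (-0.28 ± 0.06, adjusted p = 0.0148), Etf1, which reads stop codons (-0.27 ± 0.07, adjusted p = 0.0357), and Eif2ak4, the kinase that inhibits eIF2 on amino acid shortage (-0.22 ± 0.06, adjusted p = 0.0351), fell. Eef2k, the kinase that inhibits eEF2, was at 6.83, 7.07, 7.37, 7.27 and 7.27 in KO, against 6.82, 6.77, 6.64, 6.79 and 6.85 in WT. Its KO values were above WT except for KO 1, and it rose by 0.39 ± 0.09 (adjusted p = 0.0186). Rptor, a subunit of the growth kinase complex mTORC1, rose by 0.34 ± 0.06 (adjusted p = 0.00446), at 9.08 to 9.22 in KO, against 8.70 to 8.91 in WT. In set 1, Abce1 alone passed, at -0.40 ± 0.05 (adjusted p = 0.0160), with 9.49, 9.50, 9.47 and 9.55 in KO, against 9.84, 9.95, 9.93, 9.81 and 9.97 in HET, 2 groups well apart. Rptor differed by -0.03 ± 0.06 in set 1, and its set 1 minus set 2 difference of -0.37 ± 0.09 passed the test (adjusted p = 0.0385). With both steady-state sets together, Abce1 (-0.32 ± 0.05), Pabpc1 (-0.19 ± 0.04), Eif2ak4 (-0.18 ± 0.04) and Dph6, an enzyme of the diphthamide mark on eEF2 (-0.24 ± 0.05), fell, with adjusted p from 0.000258 to 0.0143. In set 3 and in the Mxd1 set none of the 46 passed, with 7 lower and 0 higher in set 3 (7.58% and 6.61% of all genes), and 2 lower and 13 higher in the Mxd1 set (6.37% and 9.51%), at limma's unadjusted p under 0.05.

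E-box sequences were looked for in the 250 bases before the annotated start of each gene, because MYC, MAX and MXD1 bind CACGTG, a palindrome that reads the same on both strands. RefSeq starts on GRCm38.p6 were at hand for 40 of the 52 factors. Some genes have several starts, and a gene was counted where any of its windows held the motif. It stood in 10 of the 40 (25%), against 6.86% of 27025 genes in the table and 8.11% of 15614 genes on the array. Counted by start, it stood in 12 of 52 windows of the factors (23.1%), against 6.02% of 32851. Besides Eef2, Eif4a1 and Eif4e these were Eif1b, Eif3f, Eif3k, Eif4h, Eif5a, Eif5a2 and Eef1aknmt. Of the 9 factors called in any comparison, 2 had it (Eef2 and Eif4a1), a share of 22.2%, and Eif3l, with the smallest p in set 2, did not. The windows of the 2 called factors with the motif, of Eif3l without it and of the one of 2 Eif4e starts that has 2 copies are given 5′ to 3′ on the strand of the gene, with CACGTG in capitals. They lie at chr10:81176381-81176630 (+) for Eef2, chr11:69672424-69672673 (-) for Eif4a1, chr15:79074973-79075222 (+) for Eif3l and chr3:138527018-138527267 (+) for Eif4e, each the 250 bases upstream of the transcription start.
Eef2: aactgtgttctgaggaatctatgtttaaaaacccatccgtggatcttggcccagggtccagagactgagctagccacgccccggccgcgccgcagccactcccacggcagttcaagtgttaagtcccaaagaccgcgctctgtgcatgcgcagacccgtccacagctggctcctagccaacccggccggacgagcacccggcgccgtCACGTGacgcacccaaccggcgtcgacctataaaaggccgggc
Eif4a1: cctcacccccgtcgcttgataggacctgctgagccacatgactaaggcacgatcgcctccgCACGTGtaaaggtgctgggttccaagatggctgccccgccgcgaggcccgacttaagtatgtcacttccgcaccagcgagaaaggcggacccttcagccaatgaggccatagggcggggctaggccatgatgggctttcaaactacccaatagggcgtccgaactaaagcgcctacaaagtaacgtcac
Eif3l: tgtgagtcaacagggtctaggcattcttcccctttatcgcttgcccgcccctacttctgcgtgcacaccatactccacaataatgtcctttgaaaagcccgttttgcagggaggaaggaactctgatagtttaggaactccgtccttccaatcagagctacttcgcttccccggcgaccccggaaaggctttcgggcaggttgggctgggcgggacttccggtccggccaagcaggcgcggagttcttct
Eif4e: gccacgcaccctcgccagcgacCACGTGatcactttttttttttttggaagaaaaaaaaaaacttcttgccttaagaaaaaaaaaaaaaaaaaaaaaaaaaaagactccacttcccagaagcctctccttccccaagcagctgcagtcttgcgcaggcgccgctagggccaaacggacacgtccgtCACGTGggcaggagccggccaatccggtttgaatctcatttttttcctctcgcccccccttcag
The first base of the motif lies 43 bases before the start in Eef2 and 189 before it in Eif4a1. A match says that these letters are in the window and not that a factor binds there, and the absence of the exact letters in Eif3l says nothing of other sites. Eef2 was lower in KO than in every control of sets 2 and 3, and passed the test in set 2 but not in set 3. In set 1 its groups overlapped, with a difference of -0.12 (limma adjusted p = 0.289). Eif4e differed by -0.07 ± 0.06, -0.05 ± 0.05 and -0.27 ± 0.14 in sets 1, 2 and 3 without passing the test. Its set 3 value was -0.11 ± 0.08 without KO 3, WT 1 and WT 4. Eif4e has 3 clusters, of which the brightest was used, and they did not move alike. The next brightest differed by -0.20, -0.04 and -0.47 in sets 1, 2 and 3, and the dimmest by 0.01, -0.10 and 0.00.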

How the data were processed

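Sorted splenic cDC1 RNA was amplified, labelled and hybridised to 35 Affymetrix arrays. The deposited values are log2 signals per transcript cluster that the authors made by RMA in Affymetrix Expression Console, per the submitters' processing notes; no source used here gives their versions. Equal value patterns between arrays showed that the 4 sets were normalized separately, so no test was made between poly IC and steady state. Of 35556 clusters, 21789 had 1 gene symbol, 1621 several and 12146 were not listed; 21698 matched RefSeq by Entrez identifier and 0 symbols changed. For the 999 genes with several clusters, including 7 members, the one with the highest mean over all arrays was used. A gene was tested where its signal reached the 30th percentile of named clusters in a number of arrays no smaller than the size of the smaller group.

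Differences were fitted with limma 3.58.1 in R 4.3.3 (lmFit and eBayes) on the groups compared. P-values were adjusted by Benjamini-Hochberg over all genes tested, with a threshold of 0.05, and ± is the standard error unless SD is named. The fit was checked on simulated data. Genes were named by a rule: members past the test or with the smallest p in a comparison, and fixed members of each role. The members, lists and rules were chosen with earlier results of these data known. Alternatives were other filters, cluster means, eBayes settings, array weights, quantile normalization, 1 fit for all groups, a replicate block and leaving out libraries. Same-numbered libraries correlated at -0.398 to 0.348 in deviation from their group means. These values gave no clear sign of pairing by number, but so few libraries cannot settle it. The number of arrays limits the precision.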

Additional observations from a re-analysis of the deposited data

Results flagged for a closer look

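In groups of 4 or 5 libraries, values that stood apart from the rest of their group by Dixon's criterion were listed. They came from 18 of 168 groups of values (10.7%), where chance gives about 1 in 20. In set 1, KO 2 was low for Eef1b2 at 12.17 (others 12.37 to 12.41) and for Eif1a at 8.31 (others 8.61, tied exactly), and high for Eif4g3 at 9.76 (others 9.62 to 9.63). HET 5 was low for Eef1b2 at 11.93 (others 12.37 to 12.48), Eef2 at 12.35 (others 12.49 to 12.53), Eif5 at 10.62 (others 10.99 to 11.04) and Mycl at 9.65 (others 9.85 to 9.93).

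In set 2, KO 1 was low for Eif3e at 10.02 (others 10.3 to 10.4) and for the mean deviation of the members at -0.09 (others -0.04 to -0.03). KO 3 was high for Eif4e at 9.1 (others 8.98 to 9.01). WT 1 was high for Eif3b at 9.2 (others 9.04 to 9.08), and WT 4 was low for Eef2 at 11.38 (others 11.46 to 11.48).

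In set 3, the library labelled KO 3 was high for Mycl at 8.87 (others 5.52 to 6.14), Eif1ax, a start codon factor, at 9.18 (others 8.87 to 8.94) and Eif2d at 6.75 (others 6.44 to 6.49), and low for Eif4g3 at 8.32 (others 8.53 to 8.58). KO 1 was low for Eif5 at 9.39 (others 9.55 to 9.58), and WT 1 was high for Eif5a at 11.01 (others 10.49 to 10.54).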

How the results depend on the processing

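Of 188 log2 differences of named factors and list medians, 49 changed sign under at least 1 alternative, and 0 of these had passed the test with or without it. The 7 factors called in set 2 became 11 with array weights, 1 with all 8 groups in one fit, 4 with the replicate block and 3 to 8 with 1 library left out. For array weights, the block and the single libraries the share of all genes called is not given here. These counts alone therefore do not say whether the factors or all genes moved. Eif4a1 lost its call without KO 5, WT 1 or WT 3, and Eif3a, Eif5 and Eef2 each without any of 6 libraries. Whether the replicate numbers pair the libraries was not settled, and the cause of the moves was not tested. The 0 factors called in set 3 became 12, all lower, with all 8 groups in one fit. In the Mxd1 set 0 became 2 in that fit, and 0 to 7 with 1 library left out (7 without WT 2). The median log2 difference of initiation factors, set 3 Mycl KO vs WT, was -0.19, and -0.0574 with array weights. It was -0.0431 without WT 1 and WT 4, where that of elongation factors was -0.0692, and they were -0.0745 and -0.0746 without KO 3 as well. For set 3 minus set 2 these medians were 0.0782 and 0.0617 without WT 1 and WT 4. The Mxd1 median of elongation factors was 0.18, and 0.0347 to 0.219 with 1 library left out. For both steady-state sets together, Eif2a lost its call without set 1 KO 1 or set 2 WT 4. Leaving out WT 1 and WT 4 of set 3, KO 3 of set 3 or WT 1 of the Mxd1 set was chosen after seeing the data.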
